A study of Mus musculus with 8 samples.

Results

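The 10 genes described here mark the intestinal crypt stem cell or are read out from Wnt signalling in the crypt: Lgr5, Olfm4, Ascl2, Smoc2, Axin2, Rgmb, Ephb2, Ephb3, Cdx1 and Slc12a2. They were taken by name, with earlier results of these data known. Each was followed through the probe sets annotated to it and to no other gene. Of the 10 genes, 9 had such a probe set, 21 probe sets in all, and Ephb2 was not analysed here because no probe set named it alone. All 9 passed the intensity filter through 15 of the 21 probe sets, among 11988 genes that passed it. RNA came from Peyer's patches, which are lymphoid follicles in the wall of the small intestine, and each of 8 mice was read on 1 single-colour Affymetrix array. The OVA mice had received ovalbumin, an egg white protein used as a food allergen, by gavage at 40 mg/kg body weight each day for 28 days, and are labelled allergic. They were 2 females (numbered 2 and 12) and 4 males (1, 5, 8 and 13), against saline-gavaged controls of 1 female (7) and 1 male (8). All mice were of the inbred C3H/Hej strain (so spelled in the labels), which carries a defective Tlr4, and were 6 weeks old at the start. A control group of 1 mouse per sex is the main limit of every comparison. The labels number the mice but do not say whether any were pooled or caged together, so p-values measure the spread between these samples.

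Crypt base columnar stem cells renew the intestinal epithelium and depend on Wnt signals from neighbouring Paneth cells and stroma. Wnt ligands bind Frizzled and Lrp receptors, which spares beta-catenin from destruction and lets it act with TCF and LEF factors on target genes. Lgr5, a receptor for R-spondins, strengthens this signal, while Axin2, itself a target, feeds back to weaken it. Ascl2 is a transcription factor of the stem cell state, Olfm4 and Smoc2 are secreted proteins enriched in these cells, and Rgmb is a co-receptor for bone morphogenetic proteins (BMPs). EphB receptors sort cells along the crypt axis, Cdx1 is a homeobox factor of intestinal epithelium, and Slc12a2 is a basolateral sodium, potassium and chloride cotransporter of crypt cells. A Peyer's patch holds both crypts and lymphoid tissue, and in a bulk sample fewer cells of a type and less RNA per cell cannot be told apart.

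Start-site windows of 3 members are printed because they span the pattern described below, from Rgmb, with the largest difference, through Axin2 to Olfm4, with almost none. Each runs from 250 bases before to 50 bases after a RefSeq start on GRCm38.p6, written 5′ to 3′ on the gene's strand. Capitals mark the letters CTTTG (the core of the TCF and LEF motif), TATAA (TATA box core) and GGGCGG (GC box), searched on both strands. The Rgmb window is chr17:15831016-15831315 (minus strand, 1 of 3 listed for the gene), the Axin2 window chr11:108920099-108920398 (plus) and the Olfm4 window chr14:80000052-80000351 (plus).
Rgmb: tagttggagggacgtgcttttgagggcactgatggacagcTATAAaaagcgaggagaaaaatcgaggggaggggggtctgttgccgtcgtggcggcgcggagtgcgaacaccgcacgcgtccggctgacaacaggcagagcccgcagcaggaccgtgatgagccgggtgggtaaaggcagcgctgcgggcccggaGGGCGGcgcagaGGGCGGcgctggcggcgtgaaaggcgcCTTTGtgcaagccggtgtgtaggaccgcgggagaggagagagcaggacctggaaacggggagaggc
Axin2: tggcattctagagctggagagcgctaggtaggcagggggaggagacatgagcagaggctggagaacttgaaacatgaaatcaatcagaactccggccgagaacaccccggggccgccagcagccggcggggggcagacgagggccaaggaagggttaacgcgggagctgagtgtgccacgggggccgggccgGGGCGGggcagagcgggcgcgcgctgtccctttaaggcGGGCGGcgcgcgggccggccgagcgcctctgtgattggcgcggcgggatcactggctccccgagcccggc
Olfm4: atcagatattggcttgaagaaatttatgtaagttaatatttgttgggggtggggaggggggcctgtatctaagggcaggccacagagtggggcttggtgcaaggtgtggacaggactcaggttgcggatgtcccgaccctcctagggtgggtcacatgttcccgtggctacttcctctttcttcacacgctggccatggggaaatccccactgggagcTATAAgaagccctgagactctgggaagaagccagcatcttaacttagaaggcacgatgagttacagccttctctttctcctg
The longer TCF and LEF letters CTTTGAT, which contain the core, were in 0 of the 8 windows listed for 6 members (Ephb2 among them) and in 3.73% of all 32851 windows. The core CTTTG was in 1 of the 8, the Rgmb window shown, and in 53.9% of all windows. GGGCGG was in 5 of the 8 and in 35.7% of all, and TATAA in 3 of the 8 and in 24.9% of all. The Rgmb window shown overlaps the Rgmb window chr17:15831197-15831496, and both hold the same TATAA, so the 3 are not separate sites. In the Rgmb window shown, TATAA lies near the 5′ end, far before that window's start. A match is only a description of these letters in a short window.

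The comparison of OVA with saline asked which transcripts of the patch differed after 28 days of oral ovalbumin. Rgmb, Slc12a2, Cdx1, Lgr5 and Axin2 were lower in OVA mice by 0.33 to 0.65 on the log2 scale. Smoc2, Olfm4, Ephb3 and Ascl2 lay within 0.20 of no difference. No member passed limma's test adjusted over all 22518 probe sets (smallest adjusted p = 0.306, Rgmb), and 0% of the 11988 genes did; over all probe sets 2524 had an unadjusted p under 0.05. At an unadjusted p under 0.05, 4 of the 9 members were lower (Rgmb, Slc12a2, Cdx1, Lgr5), against 3.82% of all genes, and 0 were higher, against 6.39% of all genes. The median member stood at -0.33, beside 0.02 for all genes, of which 46.3% were lower. All 6 OVA arrays lay below both controls for 2 members, Rgmb and Slc12a2, as they did for 4.65% of all genes. For 0 of the 9 did they lie above both, against 7.99% of all genes. Because the members were chosen with earlier results of these data known, these counts and the median carry no test. All differences come from log2(intensity + 4.881), a scale on which the change of dim probe sets is understated.

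**Figure D1:**
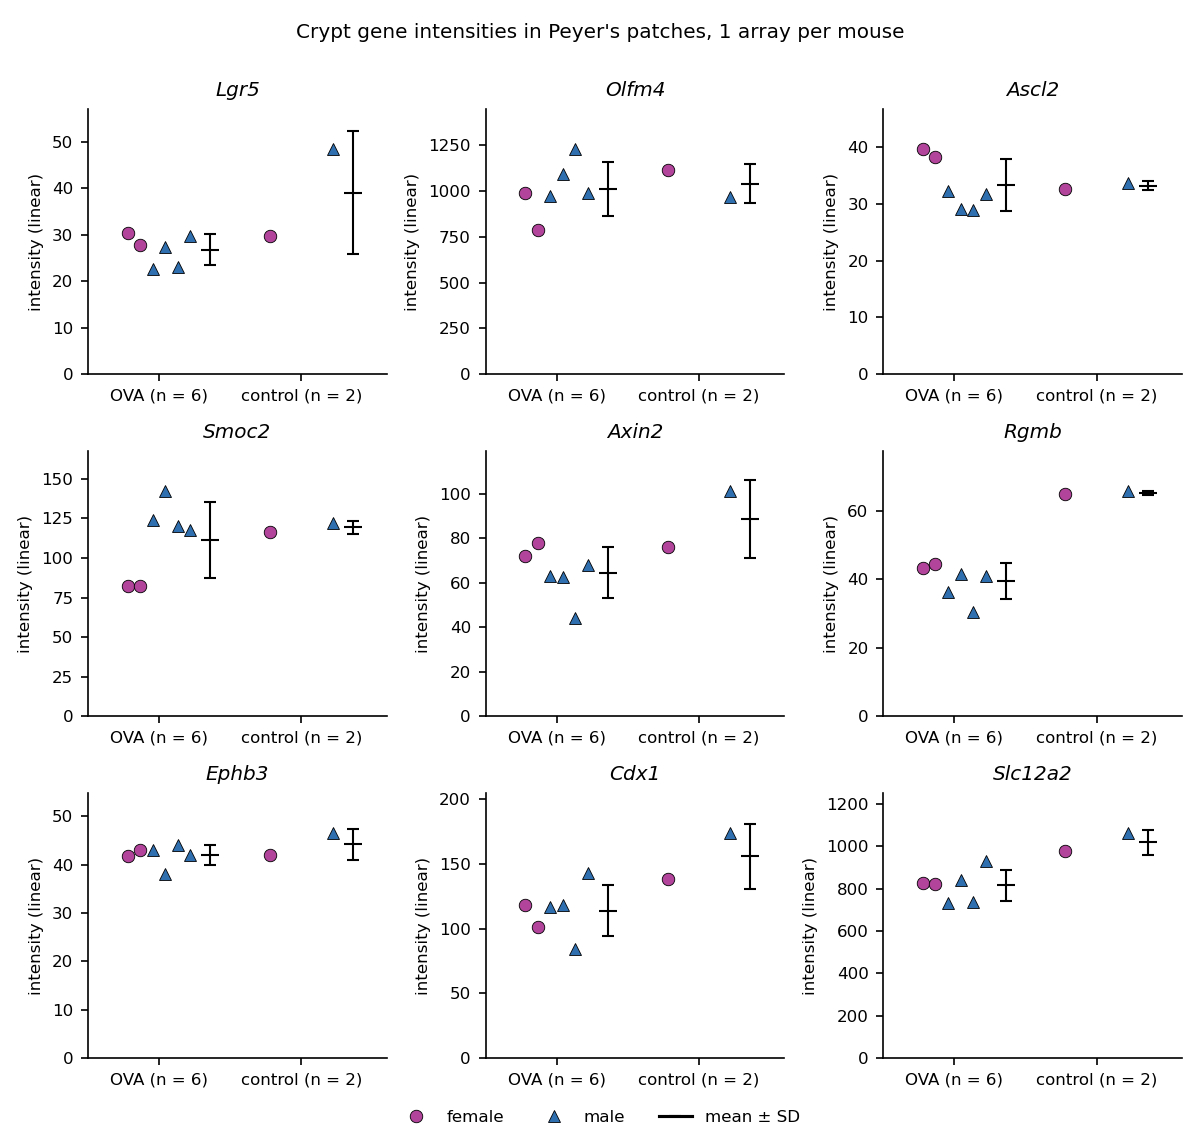
Intensity (linear scale) of each crypt gene's brightest probe set on every array, OVA mice left of controls. Circles are females, triangles males, and the bar beside each group is its mean ± SD. Rgmb and Slc12a2 show no overlap between OVA and control arrays, while Lgr5 and Axin2 stand high in the male control alone.

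Rgmb, the BMP co-receptor, differed most. Its brightest probe set (1433586_at) read 43.2 and 44.4 in female OVA mice 2 and 12, and 36.1, 41.6, 30.3 and 40.9 in male OVA mice 1, 5, 8 and 13, against 64.8 in the female and 65.6 in the male control. Every OVA array was thus well under both controls, and the controls nearly coincided. Its log2 difference was -0.65 ± 0.13 (SE; unadjusted p = 0.000902, adjusted p = 0.306, limma), a fold of 0.639. By unadjusted p it stood at rank 11 of the 11988 genes. A second probe set (1433587_at) read 18.8 to 25.3 over the 6 OVA arrays, against 27.4 in the female and 42.2 in the male control, also with no overlap. Its difference was -0.59 ± 0.16 (SE). Probe set 1442811_at was at -0.37 ± 0.20 (SE) with overlapping groups. Probe set 1428429_at was at -0.04 ± 0.11 (SE), with 24.5 to 32.3 in OVA mice against 30.5 and 30.7 in controls. The 4 tested probe sets therefore disagreed on the size, and the mean over them was -0.41. The remaining 2 read at most 12.2 on any array and were below the filter.

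Slc12a2, the crypt cotransporter, was the other gene without overlap. Its brightest probe set (1417622_at) read 826.8 and 820.0 in female OVA mice 2 and 12, and 734.2, 842.4, 739.2 and 928.5 in male OVA mice 1, 5, 8 and 13, against 976.8 in the female and 1061 in the male control. Its log2 difference was -0.33 ± 0.12 (SE; unadjusted p = 0.0235, adjusted p = 0.412, limma). A second probe set (1448780_at) was at -0.40 ± 0.14 (SE), with 53.1 to 77.7 in OVA mice against 77.0 and 87.55 in controls, so that 5 of 6 OVA arrays lay below both. In its last probe set (1417623_at) male OVA 13 read 529.3, above both controls at 351.7 and 410.9, while the other 5 OVA arrays read 261.3 to 320.6. That probe set stood at -0.22 ± 0.24 (SE).

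Cdx1, the homeobox factor, followed. It read 118.4 and 101.5 in female OVA mice 2 and 12, and 116.6, 118.4, 84.3 and 143.0 in male OVA mice 1, 5, 8 and 13, against 138.0 in the female and 173.5 in the male control. Male OVA 13 lay above the female control, and the other 5 OVA arrays lay below both controls. The difference was -0.47 ± 0.18 (SE; unadjusted p = 0.0312, adjusted p = 0.418, limma) from its single probe set (1449582_at).

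Lgr5, the R-spondin receptor that defines these stem cells, read 30.4 and 27.8 in female OVA mice 2 and 12, and 22.6, 27.3, 23.15 and 29.8 in male OVA mice 1, 5, 8 and 13, against 29.8 in the female and 48.4 in the male control (1450988_at). The female control lay among the OVA arrays, and only the male control stood apart. The additive fit gave -0.45 ± 0.18 (SE; unadjusted p = 0.0314, adjusted p = 0.419, limma). Without the male control the difference was -0.03, which is the difference within females, since the males then have no control. Its other probe set read at most 6.23 on any array, below the filter at 11.91.

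Axin2, the negative feedback regulator of the pathway, had the same shape. It read 72.2 and 77.7 in female OVA mice 2 and 12, and 63.2, 62.5, 44.1 and 67.8 in male OVA mice 1, 5, 8 and 13, against 76.2 in the female and 101.1 in the male control (1436845_at). Female OVA 12 lay above the female control, and the male control again stood highest. The difference was -0.41 ± 0.19 (SE; unadjusted p = 0.0639, adjusted p = 0.465, limma). Without the male control it was -0.02, again the difference within females. Its other probe set read at most 4.82.

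The 4 remaining members had no clear difference between treatments. Olfm4 read 991.3 and 789.9 in female OVA mice, and 971.1, 1095, 1228 and 991.3 in male OVA mice, against 1116 in the female and 965.9 in the male control. Its groups overlapped fully, and the log2 difference was -0.07 ± 0.15 (SE), with a 95% interval of -0.42 to 0.28. Ephb3, a sorting receptor of the crypt, kept to a narrow band of 38.2 to 44.0 in OVA mice, against 42.0 and 46.5 in controls, a difference of -0.07 ± 0.10 (SE; 95% interval -0.29 to 0.15). Ascl2 (1460514_s_at) averaged 33.3 ± 4.58 in OVA mice (SD, n = 6), against 33.1 ± 0.79 in controls (SD, n = 2), a difference of 0.03 ± 0.11 (SE; 95% interval -0.22 to 0.28). Its other 2 probe sets read at most 7.93. Smoc2, a secreted matrix-associated protein, averaged 111.5 ± 24.1 in OVA mice (SD, n = 6), against 119.4 ± 4.15 in controls (SD, n = 2). Its brightest probe set (1415935_at) gave -0.20 ± 0.13 (SE) and its second (1431362_a_at) 0.02 ± 0.11 (SE).

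**Figure D2:**
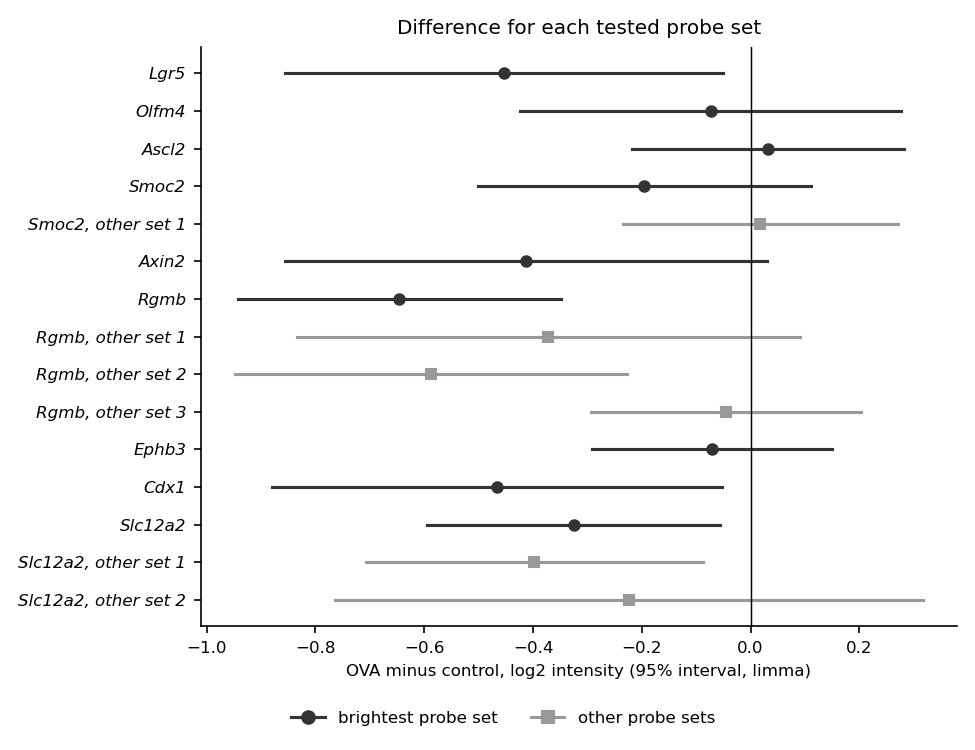
OVA minus control in log2 intensity for the 15 tested probe sets, with 95% intervals from limma's additive fit; dark circles are the brightest probe set of each gene and grey squares its others. The intervals of Rgmb's brightest set (-0.94 to -0.35) and of 1 other Rgmb set, of 2 of 3 Slc12a2 sets, of Cdx1 and of Lgr5 lie below 0, before any adjustment.

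Within each sex the OVA mice were set against a lone control, and no member passed for a difference between the sexes. In males Lgr5 was at -0.81 ± 0.16 (SE) and Axin2 at -0.74 ± 0.22 (SE). In females these were -0.03 ± 0.18 (SE) and -0.02 ± 0.24 (SE). The OVA effect in males minus that in females was -0.78 ± 0.24 (SE; unadjusted p = 0.0146, adjusted p = 0.523, limma) for Lgr5 and -0.71 ± 0.32 (SE; unadjusted p = 0.0614, adjusted p = 0.626) for Axin2, so neither passed. Both rest on the single male control, which read high for these genes (48.4 and 101.1). By its brightest probe set Rgmb was lower in both, at -0.75 ± 0.17 (SE) in males and -0.52 ± 0.19 (SE) in females. Its other tested sets did not all share this. In males and females they stood at -0.88 and -0.24 (1433587_at), -0.73 and 0.06 (1442811_at), and -0.12 and 0.04 (1428429_at). Slc12a2 stood at -0.39 and -0.25, and Cdx1 at -0.59 and -0.32, in the same order. Of the 9 members, 7 were lower in males and 7 in females, with medians of -0.39 and -0.25. Over all probe sets 0 passed for this difference between the sexes (limma, smallest adjusted p = 0.485), while 1846 had an unadjusted p under 0.05.

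Smoc2 and Ascl2 separated the female OVA mice from the rest. Smoc2 read 82.4 in each of the female OVA mice and 117.7 to 142.2 in the 4 male OVA mice, against 116.4 in the female and 122.3 in the male control. Ascl2 ran the other way, with 39.6 and 38.2 in female OVA mice and 28.8 to 32.2 in male OVA mice, against 32.6 and 33.7 in the female and male controls. Both genes thus set the 2 female OVA arrays apart from all 6 others, in opposite directions. The share of all genes that do so was not counted, so this is a description of the 2 genes only. The difference of females minus males over both treatments was -0.44 ± 0.12 (SE; unadjusted p = 0.00558, adjusted p = 0.901, limma) for Smoc2 and 0.21 ± 0.10 (SE; unadjusted p = 0.0588, adjusted p = 0.901) for Ascl2. The OVA effect on Smoc2 was 0.04 ± 0.14 (SE) in males and -0.48 ± 0.15 (SE) in females, and the effect in males minus that in females was 0.51 ± 0.21 (SE; unadjusted p = 0.0422, adjusted p = 0.591, limma). None of the 9 members passed for sex, and 0.0417% of all genes did. The second Smoc2 probe set (1431362_a_at) was at -0.18 ± 0.10 (SE) for females minus males. Its OVA effect was 0.09 ± 0.15 (SE) in males and -0.07 ± 0.16 (SE) in females. The effect in males minus that in females was 0.17 ± 0.22 (SE), so this set did not show the pattern clearly.

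**Figure D3:**
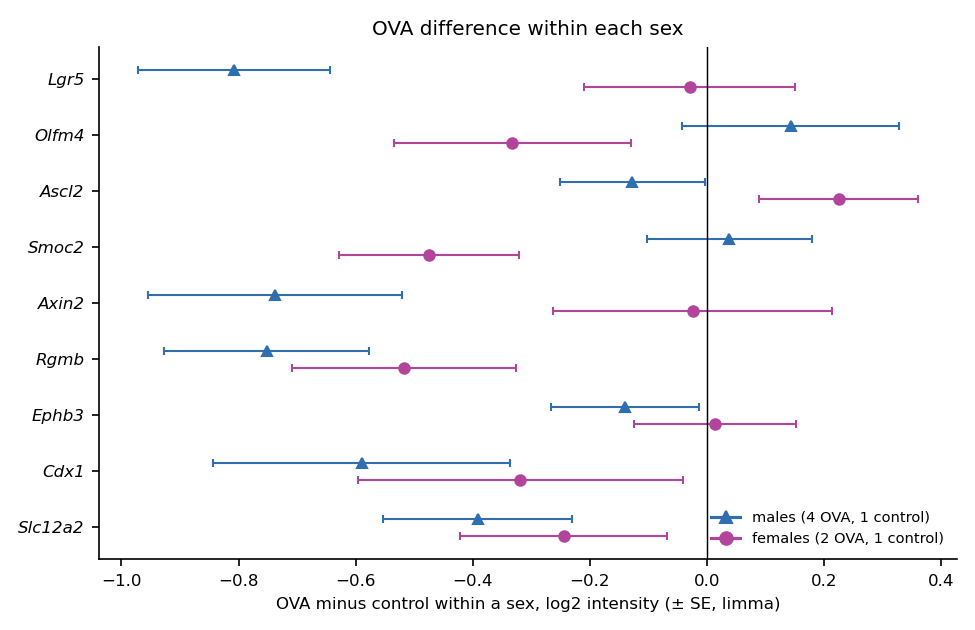
OVA minus control in log2 intensity within males (triangles, 4 OVA and 1 control) and within females (circles, 2 OVA and 1 control), with the SE from limma's fit of group means. Each gene is shown by its brightest probe set. Lgr5 and Axin2 lie at -0.81 and -0.74 in males and near 0 in females, while Rgmb, Slc12a2 and Cdx1 are below 0 in both sexes.

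Across the 8 arrays 5 members varied together, and the others were related in more mixed ways. Rgmb, Slc12a2, Cdx1, Lgr5 and Axin2 correlated with each other in all 10 pairs, with Pearson's r from 0.78 (Axin2 and Slc12a2) to 0.90 (Rgmb and Slc12a2). Among the 6 OVA arrays alone these pairs ran from 0.54 to 0.94. Among the rest, Ascl2 and Smoc2 had r = -0.91, Ascl2 and Olfm4 r = -0.73, and Olfm4 and Smoc2 r = 0.60. Axin2 was also related to Olfm4 (-0.59) and Ascl2 (0.56). These are descriptions over 8 arrays that share treatment, sex and tissue makeup. The first 5 genes are also the members with the largest OVA difference, which is part of their r over the 8 arrays. No r for pairs of genes in general was computed. The genes most like Lgr5 among the 11979 others were Sdr42e1 (r = 0.98), Ets2 (0.97), Ykt6 (0.97), Trim26 (0.97), Slc35a1 (0.97) and Dctn2 (0.97). Most like the mean of the 9 members were Litaf (0.99), Elf3 (0.98), an epithelial transcription factor, Golm1 (0.97), Sdc1 (0.97), Gpa33 (0.97), an intestinal surface antigen, and Slc39a1 (0.96).

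The mean log2 intensity of the 9 members, called the crypt score, was 6.74 ± 0.08 in OVA mice (SD, n = 6) and 7.03 ± 0.12 in controls (SD, n = 2). It was 6.79 and 6.73 in female OVA mice 2 and 12, and 6.71, 6.79, 6.61 and 6.84 in male OVA mice 1, 5, 8 and 13, against 6.95 in the female and 7.11 in the male control. All OVA arrays were below both controls, and male OVA 8 was lowest. Markers of other cells differed too, epithelial genes on the lower side and B cell genes on the higher side. All 15 of 15 epithelial identity genes passed the filter and were lower, by a median of 0.22 on the log2 scale, among them Elf3 (-0.55 ± 0.17, SE), the homeobox gene Cdx2 (-0.40 ± 0.16, SE) and the transcription factor Hnf4a (-0.47 ± 0.19, SE). Their mean log2 intensity ran from 10.03 to 10.59 in OVA mice, against 10.60 and 10.64 in controls. All 11 B cell genes with a probe set were higher, with a mean log2 intensity of 7.49 to 8.44 in OVA mice, against 7.42 and 7.45 in controls. Male OVA 8, lowest in crypt score, was lowest in the epithelial score and highest in the B cell score, followed closely by female OVA 12 (8.43).

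**Figure D4:**
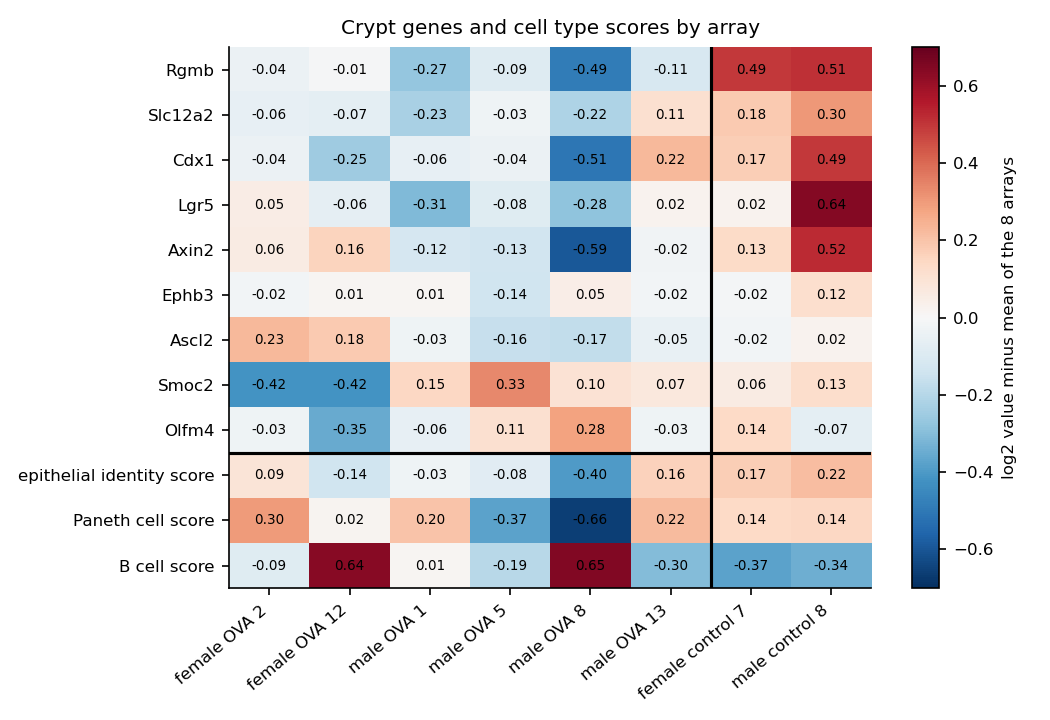
Log2 intensity of each crypt gene on each array minus its mean over the 8 arrays, with the epithelial identity, Paneth cell and B cell scores (mean log2 intensity over the list, centred likewise) below the line; OVA arrays are left of the vertical line, controls right of it. Red is above and blue below the mean; male OVA 8 is low for Axin2 (-0.59), Cdx1 (-0.51), Rgmb (-0.49), epithelial identity (-0.40) and Paneth cells (-0.66), and high for B cells (0.65).

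The members, each by its brightest probe set, were also set against the epithelial score, by subtraction and as a covariate. Among these sets Rgmb alone kept an unadjusted p under 0.05 in the covariate fit (limma). By subtraction, the mean of the members minus the epithelial score was -0.03 in OVA minus control, beside -0.28 for the crypt score itself, with members on both sides of 0. Rgmb kept the largest difference relative to this score, at -0.41, followed by Cdx1 (-0.19), Lgr5 (-0.19) and Axin2 (-0.18). Slc12a2 was at -0.07, and Ascl2 (0.25), Olfm4 (0.21), Ephb3 (0.19) and Smoc2 (0.14) were on the other side. With the epithelial score as an added covariate, Rgmb stood at -0.50 ± 0.13 (SE; unadjusted p = 0.00478, adjusted p = 0.538, limma). The other tested Rgmb sets disagreed, at -0.53 ± 0.19 (SE, 1433587_at), -0.14 ± 0.21 (SE, 1442811_at) and 0.03 ± 0.12 (SE, 1428429_at). Those of Slc12a2 were at -0.31 ± 0.16 (SE, 1448780_at) and 0.12 ± 0.21 (SE, 1417623_at). In the same fit Lgr5 was at -0.30 ± 0.20 (SE), Slc12a2 at -0.21 ± 0.12 (SE), Axin2 at -0.17 ± 0.19 (SE) and Cdx1 at -0.15 ± 0.11 (SE). Smoc2 (-0.23 ± 0.16, SE), Olfm4 (-0.18 ± 0.18, SE) and Ephb3 (-0.09 ± 0.11, SE) were on the lower side here, unlike after subtraction, and Ascl2 was at 0.11 ± 0.12 (SE). The covariate fit thus left 8 of 9 members on the lower side, and the 2 adjustments differ in the sign they give Smoc2, Olfm4 and Ephb3. Cdx1 was the member closest to the epithelial score over the arrays (r = 0.94), and Ephb3 (0.08) and Smoc2 (-0.01) were unrelated to it.

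Some members are also made outside the stem cell, and the markers of those cells were read on the same arrays. Paneth cells, the Wnt-producing neighbours at the crypt base, were covered by 6 of 12 listed genes, of which 1 was higher and 5 lower (median -0.21), none with an unadjusted p under 0.05. Their mean log2 intensity was 9.43 to 10.39 in OVA mice, against 10.23 in each control, lowest in male OVA 8. All 9 genes of follicular helper T cells, in which Ascl2 is also expressed, passed the filter, and 8 were higher (median 0.46). The mean log2 intensity of these genes was 6.49 to 7.23 in OVA mice, against 6.62 and 6.46 in controls. Of 8 neutrophil genes with a probe set, 7 were below the filter, S100a8 and S100a9 among them; neutrophils are another source of Olfm4. Stromal and smooth muscle genes, relevant to Smoc2 and Axin2, all passed (11 of 11), with a mean log2 intensity of 8.54 to 9.12 in OVA mice, against 9.01 and 8.96 in controls. The part of these cells in the values above was not tested.

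In the rest of the Wnt pathway the list medians were slightly on the lower side, from -0.14 to -0.04, while single genes differed by more. Among receptors and R-spondins, 11 of 18 passed the filter, 10 lower and 1 higher, with a median of -0.14. Fzd2, a Frizzled receptor, read 16.1 to 22.4 in OVA mice, against 28.65 and 24.8 in controls (-0.34 ± 0.12, SE). Lgr4, the R-spondin receptor most related to Lgr5, read 361.4 to 524.0 in OVA mice, against 544.5 and 554.2 in controls (-0.41 ± 0.14, SE). Fzd4 was at -0.37 ± 0.15 (SE). These 3 of the 11 had an unadjusted p under 0.05 on the lower side, against 3.82% of all genes. All OVA arrays lay below both controls for Fzd2, Lgr4 and Fzd5 (-0.42 ± 0.19, SE), against 4.65% of all genes, while Fzd4 overlapped. R-spondin genes Rspo1, Rspo2, Rspo3 and Rspo4 were all below the filter.

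Wnt ligands and their secretion genes gave 8 of 16 past the filter, 6 lower and 2 higher (median -0.04). Those of smallest p were Wnt11 (-0.16 ± 0.11, SE), Wnt5b (0.16 ± 0.16, SE) and Wnt7b (0.11 ± 0.12, SE). The Paneth cell ligand Wnt3 and the stromal ligand Wnt2b were below the filter. Inhibitors gave 9 of 15, with 6 lower and 3 higher (median -0.10), led by Sfrp5 (-0.14 ± 0.10, SE), Nkd1 (-0.17 ± 0.13, SE), another feedback target, and Dkk3 (0.18 ± 0.15, SE). No gene of either list had an unadjusted p under 0.05.

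Of 20 signal transduction genes 16 passed the filter, 12 lower and 4 higher (median -0.06). Lef1, a nuclear partner of beta-catenin that lymphocytes also express, was the 1 with an unadjusted p under 0.05, at 52.1 to 84.5 in OVA mice, against 40.95 and 40.6 in controls (0.50 ± 0.19, SE). On the higher side, 1 of 16 genes thus stood beside 6.39% of all genes, a similar share. Dvl1 (-0.26 ± 0.14, SE) and Bcl9 (-0.16 ± 0.11, SE) came next. Of 25 further crypt and Wnt target genes 20 passed, 11 lower and 9 higher (median -0.08). Kcnq1, a potassium channel (-0.30 ± 0.12, SE), and Ets2 (-0.33 ± 0.14, SE) had an unadjusted p under 0.05, and the cyclin Ccnd1 followed (-0.38 ± 0.18, SE). On the lower side, these 2 of 20 stood beside 3.82% of all genes. None of these genes passed after adjustment (adjusted p = 0.409 or above in every Wnt list, limma).

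The BMP pathway, in which Rgmb acts, had 20 of 25 genes past the filter, 16 lower and 4 higher (median -0.17). Id1, a classical BMP target, read 184.2 to 328.9 in OVA mice, against 338.6 and 370.4 in controls (-0.61 ± 0.20, SE; adjusted p = 0.409, limma). Smad6, an inhibitory Smad that BMP signals induce, read 41.6 to 64.9 in OVA mice, against 80.2 and 71.25 in controls (-0.49 ± 0.16, SE; adjusted p = 0.402, limma). For both, every OVA array lay below both controls, as for 4.65% of all genes. They were the 2 of 20 genes lower at an unadjusted p under 0.05 (limma), against 3.82% of all genes. Among the other Id and inhibitory Smad genes, Id3 was at -0.19 ± 0.11 (SE), Smad7 at -0.02 ± 0.11 (SE) and Id2 at 0.10 ± 0.14 (SE). Grem1, a secreted BMP antagonist of the stroma, was at 0.43 ± 0.20 (SE). Among ephrins and other EphB receptors 3 of 6 passed: Ephb4 (-0.43 ± 0.16, SE), Efnb2 (-0.25 ± 0.15, SE) and Efnb1 (0.01 ± 0.11, SE).

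**Figure D5:**
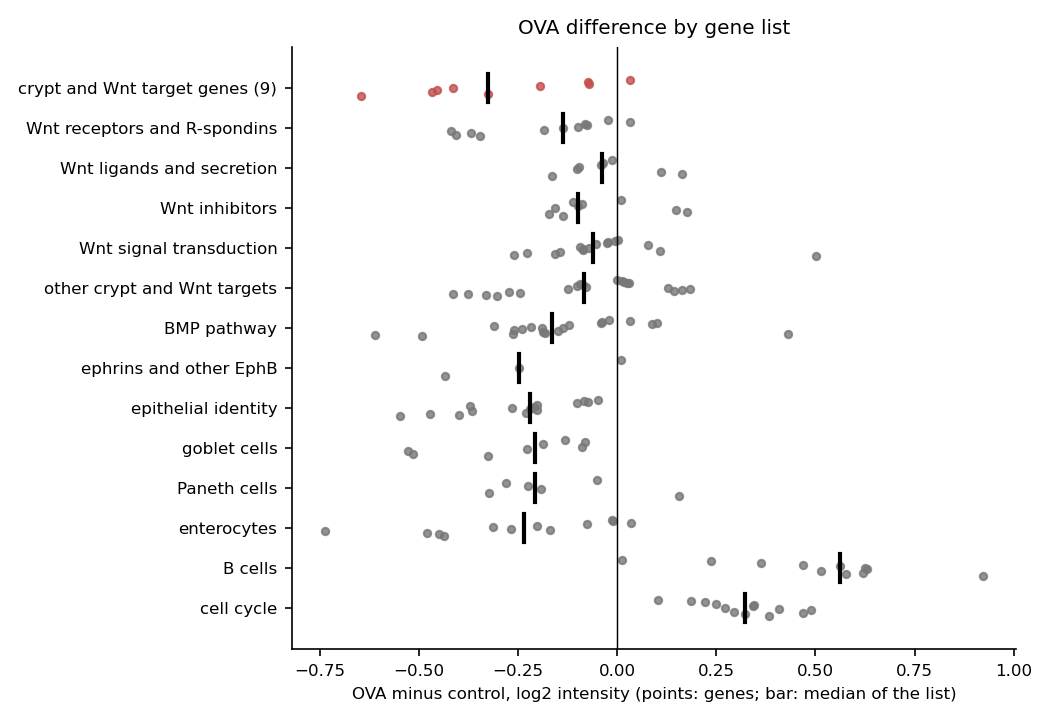
OVA minus control in log2 intensity for each gene past the filter (points), by gene list, with the list's median as a bar. The 9 crypt and Wnt target genes have a median of -0.33, epithelial identity genes -0.22, BMP genes -0.17 and Wnt receptors -0.14, while B cell genes stand at 0.56 and cell cycle genes at 0.32.

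All 13 cell cycle genes with a probe set were on the higher side (median 0.32), but only Pcna had an unadjusted p under 0.05 (0.38 ± 0.14, SE; adjusted p = 0.412, limma), beside 6.39% of all genes. Their mean log2 intensity was 8.04 to 8.79 in OVA mice, against 8.15 and 8.03 in controls. It was highest in male OVA 8 (8.79) and female OVA 12 (8.67), the 2 arrays highest in B cell score, while male OVA 5 (8.05) and 13 (8.04) lay below the female control. Crypts and germinal centres both hold dividing cells, and these arrays do not separate them.

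Across the series, arrays were alike in overall brightness, with trimmed means of 65.1 to 68.2. The 3′ to 5′ ratio of beta-actin, a measure of RNA integrity, was 1.29 to 1.37 in 5 OVA mice and 1.58 in male OVA 8, against 1.43 and 1.54 in controls. That of Gapdh was 0.834 to 0.891 in the same 5 OVA mice and 0.960 in male OVA 8, against 0.896 and 1.00 in controls. Both ratios thus lay below both controls in 5 of 6 OVA mice, and the exception, male OVA 8, was also the array lowest in crypt and epithelial score. Without male OVA 8, 5 members were lower at an unadjusted p under 0.05 (limma), Axin2 added to the other 4. The part of RNA integrity in the differences was not tested. The extraction text of the labels speaks of cortex from a patient, whereas 2 of 9 neuron and glia genes with a probe set passed the filter, against 15 of 15 epithelial and 11 of 11 B cell genes. In 11 of the 21 member probe sets the same intensity recurred to the last digit on at least 2 arrays, as it did in 51.5% of all probe sets. How the intensities were summarised is therefore not fully clear.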

How the data were processed

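Total RNA of Peyer's patches from 8 mice was read on single-colour Affymetrix mouse arrays. The authors deposited linear intensities, 1 per probe set and array, from 1.855 to 14749. MAS5 is named in the submitters' processing notes, with settings not given in the sources used here. The number of arrays limits the precision. Values were used as deposited, as log2(value + 4.881), the 25th percentile of all values. Of 45101 probe sets, 64 AFFX controls were left out and the 22518 whose mean log2 value exceeded the median probe set's (an intensity of 11.91) were tested. In the platform annotation 34958 probe sets had 1 symbol, 932 had several and 9211 had none. Each gene stands for the brightest tested probe set annotated to it alone.

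Two-sided tests were run in R 4.3.3 with limma 3.58.1 (lmFit, eBayes) over the 8 arrays, and p-values were adjusted by Benjamini and Hochberg's method over the 22518 probe sets, with a threshold of 0.05. Treatment and sex entered 1 additive fit (5 residual degrees of freedom); within-sex effects and their difference came from a fit of 4 group means, which gives a lone control the spread of the remaining arrays. No label says that replicate numbers pair mice. The members and gene lists were chosen with earlier results of these data known, so list counts and medians carry no test. Genes named from other lists are the 3 of smallest p in each, with a few added after their values were seen (Wnt2b, Wnt3, the R-spondins, S100a8, S100a9, Fzd5, Id2, Id3, Smad7). The genes most like Lgr5 or the crypt score are the 6 of highest Pearson correlation over the 8 arrays. Alternatives were a pseudocount of 1 or the median, quantile normalization, median centring, no filter or a 75th percentile filter, a robust variance trend, array weights, no covariate, the epithelial score as a covariate, the mean of a gene's probe sets, and leaving out each array. Promoter windows are RefSeq's (GRCm38.p6), read with Python 3.11.15 and pandas 2.3.3; figures used matplotlib 3.10.9.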

Additional observations from a re-analysis of the deposited data

Results flagged for a closer look

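Among 30 groups of 4 or 6 arrays examined over the 15 tested member probe sets, 3 held an array far from the others, where chance gives about 1 in 20. These groups share arrays. In the dimmer Slc12a2 probe set 1417623_at, male OVA 13 read 529.3 while the other OVA arrays read 261.3 to 320.6. In the second Rgmb probe set 1433587_at, male OVA 5 read 25.31 against 18.83 to 19.72 in the other male OVA arrays. For Ephb3, male OVA 5 read 38.16 against 41.83 to 44.02 in the other OVA arrays.

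In 2 of the 15 tested member probe sets, every OVA array lay on one side of the control in one sex and on the other side in the other sex. These were the brightest sets of Olfm4 and Ascl2. The share of all genes with this pattern was not counted, so the 2 are given as values only. Olfm4 was higher than the male control in all 4 male OVA mice and lower than the female control in both female OVA mice, and the OVA effect in males minus that in females was 0.48 on the log2 scale (unadjusted p = 0.125, adjusted p = 0.703, limma). Ascl2 was lower in all 4 male and higher in both female OVA mice, with -0.35 (unadjusted p = 0.0953, adjusted p = 0.665, limma). Each rests on 1 control per sex.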

How the results depend on the processing

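No paired analysis was possible because no label says that any mice are paired. The count of probe sets past the adjusted threshold was 0 for OVA against control in all 19 alternatives, and for the OVA effect in males minus females in the 16 that could be fitted. Rgmb, Slc12a2, Cdx1, Lgr5 and Axin2 were lower in OVA mice in all of theirs, Rgmb from -0.75 to -0.41 over 18. The 8 members lower in OVA became 5 of 5 with the filter at the 75th percentile, which drops Lgr5, Rgmb, Ephb3 and Ascl2, and were 7 to 9 when an array was left out. The 4 members with an unadjusted p under 0.05 on the lower side became 2 with that filter, 2 with array weights (Rgmb and Slc12a2), 1 with the epithelial score as a covariate (Rgmb), and 2 to 5 when an array was left out. Leaving out a control leaves only the OVA difference within the sex of the remaining control. Without the male control this was -0.52 for Rgmb and -0.48 for Smoc2, the same estimates as within females. The crypt score difference of -0.28 was -0.20 without the male control and -0.37 without the female control, the extremes. Ascl2 turned to -0.0033 with no covariate, and ran from -0.13 to 0.22 as arrays were left out. Over the same arrays Olfm4 ran from -0.33 to 0.14, Smoc2 from -0.48 to 0.038 and Ephb3 from -0.14 to 0.0128. The 12 probe sets called for sex became 4 with the higher filter and 5 genes when probe sets were averaged. Dim signal limits Lgr5, Rgmb, Ephb3 and Ascl2, the members that the higher filter drops. The tested Axin2 set passed that filter. Below the main filter were 1 of 2 probe sets of Lgr5 and of Axin2, 2 of 3 of Ascl2, and 2 of Rgmb.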
